A study of Mus musculus with 6 samples.

Results

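The 44 cell cycle and DNA replication genes described here were listed by name and sorted by their role into 8 cyclins, kinases and a transcription factor of G1, 12 genes of S phase and replication, 21 genes of G2 and mitosis and 3 inhibitors of cyclin-dependent kinases (CDKs). A gene was taken as measured where a probe set, a group of short oligonucleotides that reads 1 transcript, carried its symbol and no other. This held for 43 of the 44 genes, out of 12393 genes so measured on the array, and Ccnb1 was the gene with no such probe set. The 43 genes were read by 81 probe sets, and each gene is represented by its brightest one. RNA came from skeletal muscle of wild-type C57BL/6 mice, given as 1 month old in the labels and as adult in the study's text. In 3 samples, labelled biological replicates, the muscle was injected with an adeno-associated virus (AAV) for murine TFEB (Tcfeb). In 3 others it was injected with an AAV for green fluorescent protein (GFP), so the controls had also received virus. The study's text says that mice received either vector. Both vectors used the CMV promoter, which is not restricted to muscle fibres, and the array reads the whole tissue. The question put to these data is which transcripts of the cell cycle differ between TFEB and GFP muscle.

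The cell cycle runs on cyclins that rise and fall and on the CDKs they switch on. D-type cyclins with CDK4 or CDK6 and E-type cyclins with CDK2 inactivate the retinoblastoma protein in G1, which frees E2F factors to switch on the genes of DNA replication, and cyclin A and B with CDK1 then drive mitosis. Mature muscle fibres have left the cycle for good, so transcripts of dividing cells in muscle usually come from mononucleated cells such as satellite cells, connective tissue cells and leukocytes. D-type cyclins and the inhibitor p21 (Cdkn1a) are also made in cells that do not divide. In whole muscle, more cells of a dividing type and more of the transcript per cell cannot be told apart.

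A gene passed the threshold when its limma adjusted p was under 0.05 and it differed at least 1.5-fold. By this rule 8 of the 43 genes were higher and 3 were lower in TFEB muscle, and 32 did not pass. Over the array 8.62% of genes were higher and 4.9% were lower by the same rule. The genes that rose were the G1 genes Ccnd1, Ccnd3, Cdk4 and Cdk2, the replication gene Rrm2, the mitotic genes Ccna2 and Cenpa, and the inhibitor Cdkn1a. Those that fell were Ccne2, Rrm1 and Aurka. With no limit on the fold 10 were higher and 4 lower, where 16.8% of all genes were higher and 16.8% lower. The median log2 fold change (TFEB minus GFP) was 0.46 over the 43 genes and -0.05 over all genes. The 3 TFEB arrays lay above the 3 GFP arrays at 12 of the genes (22.9% of all genes) and below them at 6 (28.2% of all genes), and at 25 the groups overlapped. One control array stood apart at these genes. GFP replicate 2 was over 2-fold above both other GFP arrays at 11 of the 43 genes, which held for 3.43% of all genes, and without it 24 genes were higher and 3 lower, against 12.3% and 6.36% of all genes. Leaving out any one of the other arrays gave 3 to 6 higher and 1 or 2 lower. GFP replicate 2 was singled out by values that include those of these genes. The larger fold changes and smaller standard errors without it follow in part from that choice. Counts and adjusted p without it, here and below, are a description and no independent support.

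**Figure D1:**
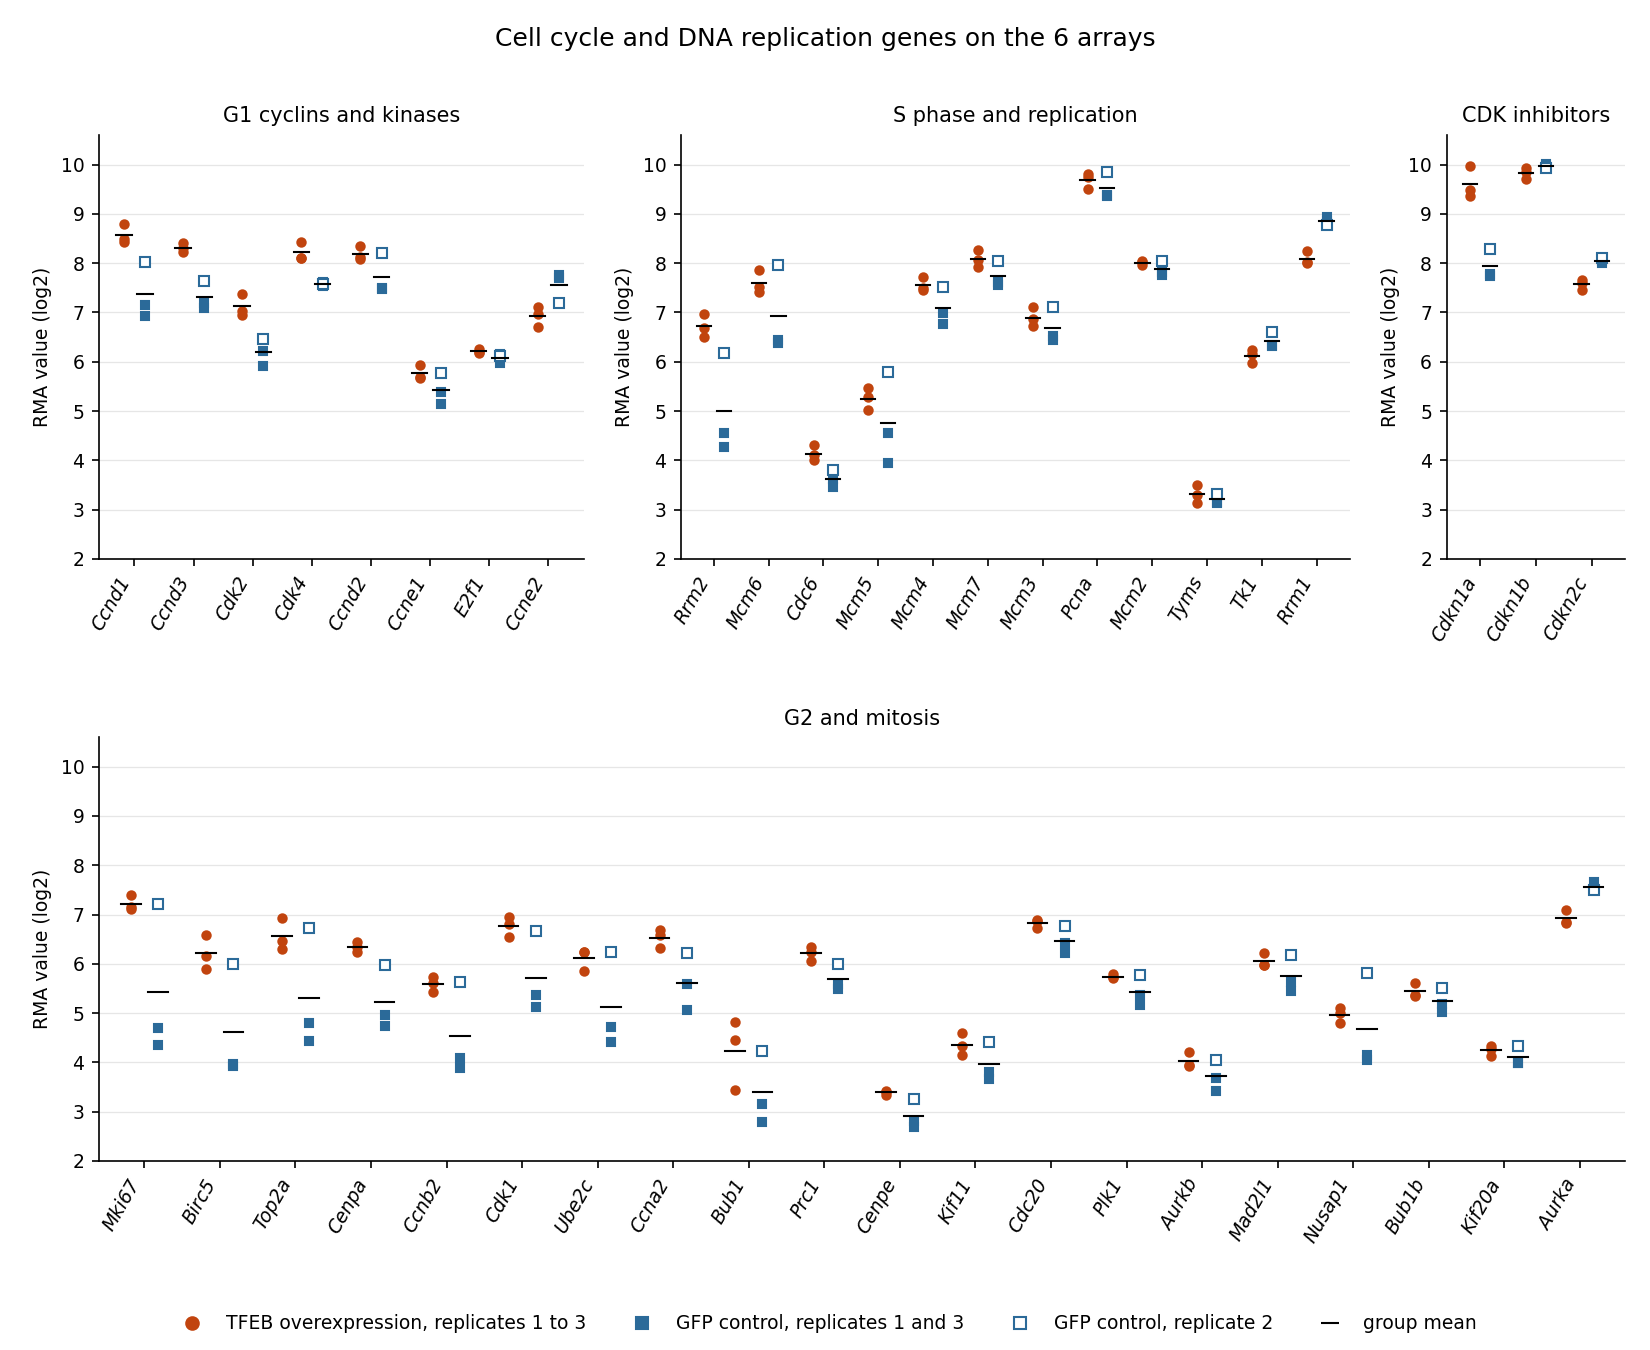
Deposited values (RMA, log2) of the 43 measured genes on each array, by class and in order of fold change, with TFEB arrays as circles left of GFP arrays as squares, GFP replicate 2 as an open square and group means as black lines. The open square sits over 2-fold above both other GFP squares at 3 of 12 S phase and 8 of 20 mitotic genes, such as Mki67 at 7.21, and nearer to them at Ccnd3, Cdk4 and Cdkn1a. Heights of different genes cannot be compared, because each probe set has its own brightness.

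Over the whole array, pairs of TFEB arrays differed over 2-fold at 45 to 101 of 22626 probe sets and GFP replicates 1 and 3 at 87, whereas GFP replicate 2 differed from them at 844 and 725. The single probe set of Tfeb was lower in the TFEB group, with 7.92, 7.68 and 7.61 in TFEB muscle against 8.49, 8.47 and 8.58 in GFP muscle (log2 fold change -0.77 ± 0.097 SE, limma adjusted p = 0.0024). The sources do not say which part of the transcript is read, so delivery of the vector is not checked by it, and the groups are named for the vector given. A sign of RNA quality, the excess of the 3′ over the 5′ signal of beta-actin, also moved with the groups, at 0.22 to 0.34 on TFEB arrays and 0.037 to 0.077 on GFP arrays (log2). Its part in the results was not tested.

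Promoters of cell cycle genes carry short elements that are known to time their transcription, and these are shown because the classes described here differ in some of them. E2F sites mark genes of G1 and S phase. The CHR element, bound by the DREAM and MuvB complexes, and the CCAAT box, bound by NF-Y, mark genes of G2 and mitosis. CACGTG is the core of the E-box that TFEB and other basic helix-loop-helix factors bind. RefSeq promoter windows (GRCm38.p6), from 250 bases before to 50 bases after the start of a gene, were given for 37 of the 44 genes and 27025 genes in all. Both strands were searched for CCAAT, for the CHR words TTTGAA and TTCGAA, for the E2F words TTTGGCGC, TTTCGCGC and TTTCCCGC, and for CACGTG. A CHR word was in the windows of 13 of 18 G2 and mitosis genes (72.2%), each of which held CCAAT too, against 2 of 11 S phase genes, 0 of 5 G1 genes and 21.7% of all genes. Both elements together were in 9.65% of all genes. CCAAT, with or without a CHR word, was in 15 of 18 G2 and mitosis genes (83.3%) and 8 of 11 S phase genes (72.7%). It was in 2 of 5 G1 genes and in 41.1% of all genes. E2F words were in 5 of 11 S phase genes (45.5%), 1 of 5 G1 genes and 1 of 18 G2 and mitosis genes, against 2.12% of all genes. CACGTG was in 3 of the 37 genes (8.11%), Cdk4, Tyms and Cdkn2c, against 8.09% of all genes. A match of letters is a description and not a site in use.

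The stretches below end at the base before the start of the gene and run 5′ to 3′ on the gene's strand, with the matched words in capitals. They stand for a G1 gene that rose (Cdk4, chr10:127063285-127063534, plus strand), a replication gene (Mcm6, chr1:128359706-128359955, minus strand), 3 mitotic genes that were high in GFP replicate 2 as in TFEB muscle (Mki67, chr7:135716380-135716629, Cdk1, chr10:69352913-69353162, and Top2a, chr11:99024190-99024439, each on the minus strand) and the mitotic gene that fell (Aurka, chr2:172370571-172370820, minus strand).
Cdk4: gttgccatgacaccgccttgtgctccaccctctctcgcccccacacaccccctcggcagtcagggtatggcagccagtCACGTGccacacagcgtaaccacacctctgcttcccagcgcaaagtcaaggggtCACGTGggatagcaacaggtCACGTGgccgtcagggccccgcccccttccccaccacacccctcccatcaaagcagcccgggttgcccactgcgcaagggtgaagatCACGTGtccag
Mcm6: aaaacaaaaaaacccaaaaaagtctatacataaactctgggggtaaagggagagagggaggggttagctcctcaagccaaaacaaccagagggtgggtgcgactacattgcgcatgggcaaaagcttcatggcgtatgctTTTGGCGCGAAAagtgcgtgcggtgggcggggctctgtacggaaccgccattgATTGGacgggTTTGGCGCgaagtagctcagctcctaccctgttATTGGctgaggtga
Mki67: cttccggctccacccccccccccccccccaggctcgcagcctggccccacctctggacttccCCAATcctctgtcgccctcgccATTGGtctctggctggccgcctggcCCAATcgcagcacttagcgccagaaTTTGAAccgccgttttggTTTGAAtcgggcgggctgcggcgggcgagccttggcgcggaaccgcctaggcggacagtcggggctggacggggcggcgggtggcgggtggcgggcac
Cdk1: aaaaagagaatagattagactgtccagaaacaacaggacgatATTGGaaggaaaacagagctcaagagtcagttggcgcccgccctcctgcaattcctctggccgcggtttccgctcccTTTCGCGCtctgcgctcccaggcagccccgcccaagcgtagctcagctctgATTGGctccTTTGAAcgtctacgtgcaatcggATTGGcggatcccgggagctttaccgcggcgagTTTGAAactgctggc
Top2a: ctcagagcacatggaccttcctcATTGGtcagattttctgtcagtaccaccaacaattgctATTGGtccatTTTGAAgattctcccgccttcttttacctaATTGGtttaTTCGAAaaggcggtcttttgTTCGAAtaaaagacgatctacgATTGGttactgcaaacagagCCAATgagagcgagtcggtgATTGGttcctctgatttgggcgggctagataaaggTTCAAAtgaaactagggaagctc
Aurka: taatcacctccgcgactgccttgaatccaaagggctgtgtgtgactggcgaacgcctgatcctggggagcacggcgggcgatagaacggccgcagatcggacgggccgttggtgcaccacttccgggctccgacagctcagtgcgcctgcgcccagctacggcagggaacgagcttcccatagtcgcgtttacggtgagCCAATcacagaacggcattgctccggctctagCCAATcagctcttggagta

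In the Cdk4 stretch the capitals mark 4 E-box cores, and in that of Mcm6 they mark E2F words, of which 2 overlap, and CCAAT boxes read on the other strand as ATTGG. Mki67, Cdk1 and Top2a each held several CCAAT boxes and 2, 2 and 4 CHR words, and Cdk1 also an E2F word. Aurka, which went the other way on the arrays, held 2 CCAAT boxes in the stretch, and the CHR word counted for it lay after the start. Birc5 and Nusap1 were also high in GFP replicate 2, yet their windows held none of these elements. Of the 11 genes over 2-fold above both other controls on that array, 6 (54.5%) held a CHR word and 9 (81.8%) CCAAT. The stretches shown therefore do not stand for all genes with this pattern.

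**Figure D2:**
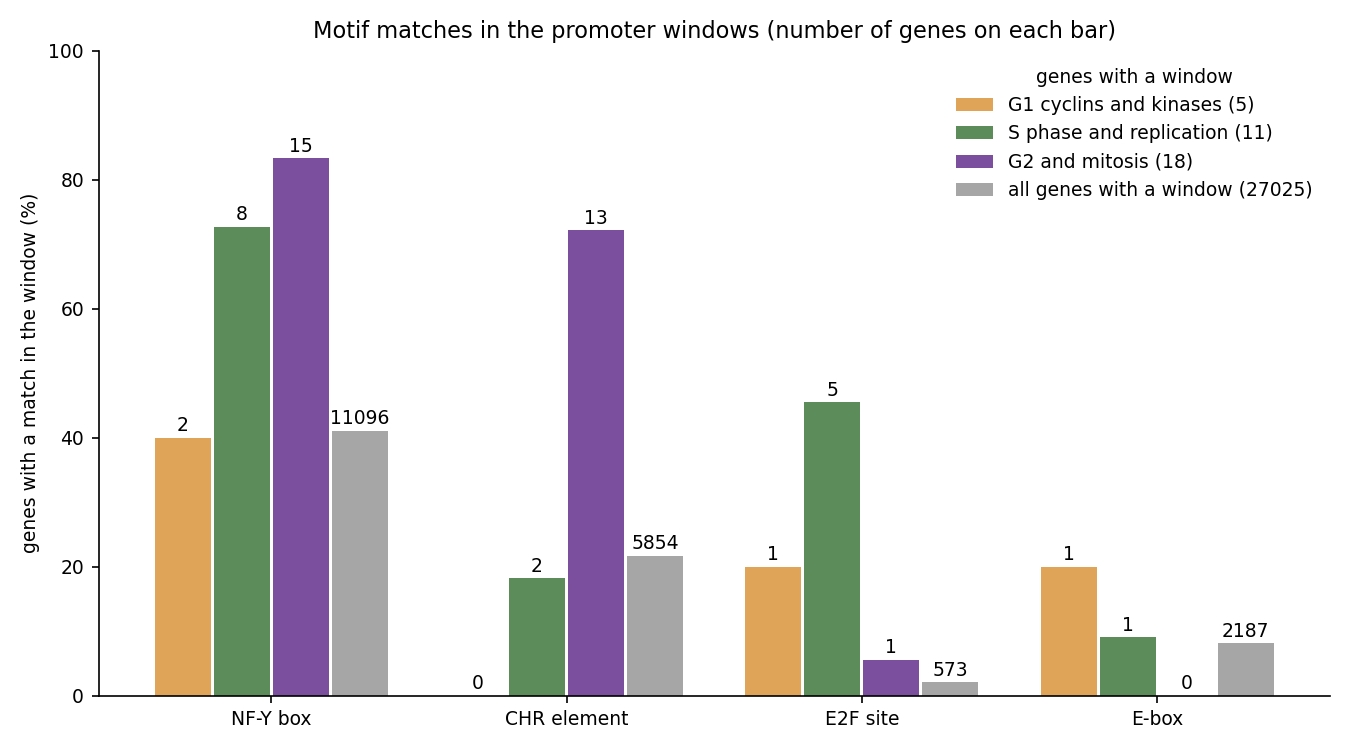
Share of genes (%) whose 300-base promoter window held a match to each element, for the G1, S phase, and G2 and mitosis genes and for all 27025 genes with a window, with the number of genes on each bar. CHR matches were most frequent among G2 and mitosis genes (13 of 18) and E2F matches among S phase genes (5 of 11). The 3 CDK inhibitors are not drawn.

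Of the 8 G1 genes, 4 rose and 1 fell, and the class had a median log2 fold change of 0.55. Ccnd1, which encodes cyclin D1, measured 8.42, 8.50 and 8.79 on the TFEB arrays, against 6.92, 8.02 and 7.15 on the GFP arrays. All 3 TFEB values lay above the GFP values, of which replicate 2 was the highest. The gene rose 2.30-fold (log2 fold change 1.20, SE 0.28, n = 3 per group, limma adjusted p = 0.019), and its other 2 probe sets passed as well, with log2 fold changes of 0.95 and 0.73. The call was lost without TFEB replicate 2 (adjusted p = 0.052), TFEB replicate 3 (0.072) or GFP replicate 3 (0.068). Ccnd3, for cyclin D3, which is known to stay on in differentiated muscle cells, measured 8.31, 8.22 and 8.40 in TFEB muscle and 7.10, 7.64 and 7.18 in GFP muscle. Its groups stood well apart, and it rose 2.01-fold (log2 fold change of 1.00 ± 0.15 SE with adjusted p = 0.0039). Cyclin D2 was the D-type cyclin that did not pass. Ccnd2 measured 8.08, 8.13 and 8.35 in TFEB muscle and 7.50, 8.20 and 7.49 in GFP muscle, so that GFP replicate 2 lay inside the TFEB range (log2 fold change of 0.46 ± 0.20 SE with adjusted p = 0.13). Without that array Ccnd2 was 1.62-fold higher (adjusted p = 0.0024). Its 7 probe sets disagreed, with log2 fold changes of -0.07 to 0.71 over all arrays and 1 of them past the threshold.

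The partner kinases rose as well. Cdk4, the kinase of the D-type cyclins, measured 8.11, 8.10 and 8.43 in TFEB muscle and 7.53, 7.58 and 7.62 in GFP muscle. It is one of the genes on which the GFP arrays were close together, replicate 2 included. Cdk4 rose 1.56-fold (log2 fold change of 0.64 ± 0.10 SE with adjusted p = 0.0057), near the fold limit, and was under it without TFEB replicate 3 (log2 fold change 0.53) and with arrays set to equal medians (0.57). One of its other probe sets passed at 0.61 and one, at 0.52, was under the limit, and the brightest is of a type (x_at) whose probes can read related sequences. Cdk2, the kinase of cyclins E and A, measured 7.03, 6.95 and 7.38 in TFEB muscle and 5.91, 6.46 and 6.22 in GFP muscle. Here too the groups were well separated, and Cdk2 rose 1.90-fold (log2 fold change of 0.92 ± 0.17 SE with adjusted p = 0.0087).

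Of the E-type cyclins, which partner CDK2 at the entry to S phase, 1 fell and 1 did not pass. Ccne2 measured 7.12, 6.71 and 6.96 in TFEB muscle and 7.76, 7.20 and 7.71 in GFP muscle. GFP replicate 2 was the control array nearest to the TFEB arrays here too, but from the other side. Ccne2 fell 1.54-fold (log2 fold change of -0.63 ± 0.18 SE with adjusted p = 0.036). This call was lost when any array other than GFP replicate 2 was left out (adjusted p = 0.051 without TFEB replicate 1, 0.11 without TFEB replicate 2, 0.095 without TFEB replicate 3, 0.10 without GFP replicate 1 and 0.11 without GFP replicate 3), and without GFP replicate 2 the fall was 0.81 on the log2 scale (adjusted p = 0.003). Ccne1 measured 5.69, 5.66 and 5.94 in TFEB muscle and 5.39, 5.76 and 5.13 in GFP muscle, which overlap (adjusted p = 0.17). E2f1, the transcription factor released by the retinoblastoma protein, was at 6.18, 6.26 and 6.20 in TFEB muscle and 5.97, 6.12 and 6.15 in GFP muscle. The groups did not overlap, yet the log2 fold change was 0.13 ± 0.077 (SE, adjusted p = 0.23).

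Among 29 measured genes of a list of 33 further G1 and CDK regulators, 4 were higher and 1 lower, with a median log2 fold change of 0.14 (6 higher and 2 lower without GFP replicate 2). Of all genes 8.62% were higher and 4.9% lower, and without GFP replicate 2 12.3% and 6.36%. Cks2 rose 3.70-fold and Cks1b 2.33-fold, both of them small adaptor proteins of CDKs. Skp2, which marks the inhibitor p27 for degradation, rose 1.93-fold. Rb1, the retinoblastoma gene, rose 1.52-fold, with 8.71, 8.66 and 8.72 in TFEB muscle and 8.09, 8.20 and 7.98 in GFP muscle. E2f6, an E2F factor that represses, fell 2.22-fold, with 10.02, 10.18 and 9.78 in TFEB muscle and 11.22, 10.99 and 11.22 in GFP muscle.

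Of the 3 CDK inhibitors, 1 rose and 2 did not pass. Cdkn1a encodes p21, which binds and inhibits cyclin-CDK complexes and is known as a target of p53 and of MyoD in differentiating muscle cells. It measured 9.36, 9.48 and 9.97 in TFEB muscle and 7.75, 8.30 and 7.78 in GFP muscle. The lowest TFEB value lay more than 2-fold above the highest GFP value. Cdkn1a rose 3.17-fold (log2 fold change of 1.67 ± 0.21 SE with adjusted p = 0.0024), and its second probe set gave 1.59. The call was kept under each of the 16 alternatives, of which the removal of the fold limit could not have lost it. Cdkn2c encodes p18, an inhibitor of CDK4 and CDK6. It measured 7.45, 7.66 and 7.59 in TFEB muscle and 8.0, 8.10 and 8.04 in GFP muscle. The groups were apart, but the log2 fold change of -0.48 ± 0.081 (SE, adjusted p = 0.0062) was under the fold limit. Cdkn1b, for p27, measured 9.92, 9.84 and 9.71 in TFEB muscle and 10.01, 9.94 and 9.98 in GFP muscle (log2 fold change of -0.15 ± 0.080 SE with adjusted p = 0.18). A second, dimmer Cdkn1b probe set passed with a log2 fold change of -0.82 (adjusted p = 0.02), so the probe sets of this gene do not give one answer.

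Cdkn1a is a target of p53, and 23 other genes that answer to p53 were measured, of 25 listed. Of these 3 were higher and 2 lower, against 8.62% and 4.9% of all genes, with a median log2 fold change of -0.02. Counts this small cannot be told apart from those shares. The kinase gene Plk2 rose 2.76-fold, Gadd45a, a stress gene that is also raised in denervated muscle, 1.68-fold, and Sesn1, a stress-responsive regulator of growth signalling, 1.57-fold. Polk, a DNA polymerase that reads across lesions, fell 2.12-fold and Ei24, a membrane protein gene, 1.55-fold.

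Of the 12 genes of S phase and replication, Rrm2 rose, Rrm1 fell and 10 did not pass, and the class median was 0.28. Rrm1 and Rrm2 encode the large and the small subunit of ribonucleotide reductase, which makes the DNA precursors. Rrm2 measured 6.50, 6.69 and 6.96 in TFEB muscle and 4.56, 6.19 and 4.26 in GFP muscle. GFP replicate 2 stood between the TFEB arrays and the other controls. Rrm2 rose 3.28-fold (log2 fold change of 1.71 ± 0.48 SE with adjusted p = 0.034), and without GFP replicate 2 it was 4.94-fold higher (adjusted p = 2e-04). Leaving out any one of the other arrays lost the call (adjusted p = 0.072 without TFEB replicate 1, 0.086 without TFEB replicate 2, 0.11 without TFEB replicate 3, 0.097 without GFP replicate 1 and 0.097 without GFP replicate 3). Its other probe sets gave log2 fold changes of 2.75, which passed, and 0.47, which did not. Rrm1 went the other way, with 8.01, 8.24 and 8.01 in TFEB muscle and 8.86, 8.77 and 8.93 in GFP muscle. These GFP arrays were close together, and Rrm1 fell 1.70-fold (log2 fold change of -0.76 ± 0.092 SE with adjusted p = 0.0022). Its second probe set also was lower, but by 0.28 on the log2 scale, which is under the fold limit, and the mean of both gave -0.52.

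The MCM2 to MCM7 proteins form the ring helicase that opens DNA at origins, and Cdc6 helps to load it. With all arrays none of the 6 Mcm genes passed by limma (1 had an unadjusted p under 0.05) or by the methods' two-tailed test. Mcm6 measured 7.42, 7.52 and 7.86 in TFEB muscle and 6.44, 7.95 and 6.39 in GFP muscle, and Mcm5 measured 5.02, 5.28 and 5.46 in TFEB muscle and 3.94, 5.80 and 4.55 in GFP muscle. On both genes GFP replicate 2 was the highest of the 6 arrays, while the other 2 controls lay below every TFEB array. The log2 fold changes were 0.67 ± 0.41 for Mcm6 and 0.49 ± 0.44 for Mcm5 (SE, adjusted p = 0.25 and 0.42). Without GFP replicate 2 they were 1.19 ± 0.14 and 1.01 ± 0.20 (SE, adjusted p = 0.00092 and 0.0075). Mcm4 gave 0.46 ± 0.19 (SE, adjusted p = 0.11) with all arrays and 0.68 without that array (adjusted p = 0.0041), and a second Mcm4 probe set passed with all arrays at 0.97. Mcm7, Mcm3 and Mcm2 had log2 fold changes of 0.35, 0.21 and 0.14 with all arrays and did not pass with or without the array. Cdc6 measured 4.00, 4.11 and 4.31 in TFEB muscle and 3.47, 3.80 and 3.62 in GFP muscle, apart but 1.42-fold, under the limit (adjusted p = 0.019). It was 1.51-fold without GFP replicate 2 (adjusted p = 0.0069). Pcna, the sliding clamp of DNA polymerase, was at 9.51, 9.75 and 9.82 in TFEB muscle and 9.38, 9.85 and 9.36 in GFP muscle, a log2 fold change of 0.16 ± 0.16 (SE, adjusted p = 0.46). The thymidylate genes did not pass either. Tk1, the thymidine kinase of S phase, measured 5.98, 6.15 and 6.23 in TFEB muscle and 6.31, 6.61 and 6.34 in GFP muscle (adjusted p = 0.079), the opposite direction to Rrm2. Tyms, for thymidylate synthase, was dim on every array, from 3.13 to 3.49, and its groups overlapped (adjusted p = 0.49). Its other probe sets, as dim, had all TFEB arrays below all GFP arrays. Their log2 fold changes were -0.38 and -0.17 (adjusted p = 0.019 and 0.18), both under the fold limit, so the probe sets of Tyms disagree in direction.

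In 38 measured genes of 43 further replication genes, 1 was higher and 3 were lower, against 8.62% and 4.9% of all genes, with a median log2 fold change of 0.02. Cdt1, the partner of Cdc6 in loading the helicase, rose 5.30-fold, with 8.13, 8.06 and 8.52 in TFEB muscle and 5.10, 6.78 and 5.62 in GFP muscle. Those that fell were Pold2, a subunit of DNA polymerase delta, 1.65-fold, Rfc4, a subunit of the clamp loader, 1.63-fold, and Orc2, a subunit of the origin recognition complex, 1.56-fold. GFP replicate 2 was over 2-fold above both other controls at 2 of these 38 genes, against 3.43% of all genes. Without it 5 of the 38 were higher and 4 lower, against 12.3% and 6.36% of all genes.

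Of the 20 measured genes of G2 and mitosis, Ccna2 and Cenpa rose, Aurka fell and 17 did not pass. The class median was 0.50, and 19 of the 20 log2 fold changes were above 0. Ccna2, for cyclin A2, which acts in S phase and at the start of mitosis, measured 6.33, 6.58 and 6.69 in TFEB muscle and 5.58, 6.22 and 5.05 in GFP muscle. Cenpa, the histone H3 variant of the centromere, measured 6.44, 6.25 and 6.34 in TFEB muscle and 4.74, 5.97 and 4.97 in GFP muscle. On both genes GFP replicate 2 came close to the TFEB arrays without reaching them. Ccna2 rose 1.88-fold (log2 fold change of 0.91 ± 0.28 SE with adjusted p = 0.046) and a second probe set gave 1.69. Cenpa rose 2.17-fold (1.12 ± 0.30 SE, adjusted p = 0.03). Neither call held when an array other than GFP replicate 2 was left out. For Ccna2 the adjusted p was then 0.076 (without TFEB replicate 1), 0.12 (TFEB replicate 2), 0.14 (TFEB replicate 3), 0.11 (GFP replicate 1) and 0.092 (GFP replicate 3). For Cenpa it was 0.086, 0.071, 0.09, 0.075 and 0.099 in the same order. Without GFP replicate 2 the adjusted p was 0.0021 for Ccna2 and 0.00022 for Cenpa.

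At genes that mark dividing cells the gaps were wide, and there the control group was split. Mki67, the proliferation antigen Ki-67, measured 7.11, 7.15 and 7.40 in TFEB muscle and 4.69, 7.21 and 4.36 in GFP muscle. Birc5, for survivin, a subunit of the chromosomal passenger complex, measured 5.90, 6.17 and 6.59 in TFEB muscle and 3.92, 5.99 and 3.96 in GFP muscle. Top2a, the topoisomerase that untangles chromosomes, measured 6.46, 6.31 and 6.92 in TFEB muscle and 4.80, 6.72 and 4.43 in GFP muscle. At each of these GFP replicate 2 lay inside the TFEB range, and GFP replicates 1 and 3 lay far below it. With all arrays the log2 fold changes were 1.80 ± 0.70 for Mki67, 1.59 ± 0.55 for Birc5 and 1.25 ± 0.57 for Top2a (SE, adjusted p = 0.092, 0.068 and 0.14). Without GFP replicate 2 they were 2.70 ± 0.14, 2.28 ± 0.19 and 1.95 ± 0.20 (SE, adjusted p = 1e-04, 0.00032 and 0.00057), which is 6.48-, 4.85- and 3.86-fold. The array left out is the control that was high at these same genes, so the smaller SE and p follow in part from the choice. A second, dimmer Top2a probe set did not follow, with 4.00, 3.90 and 3.91 in TFEB muscle and 4.16, 4.09 and 4.19 in GFP muscle (log2 fold change of -0.21, adjusted p = 0.061), and the mean of both probe sets gave 0.52 (adjusted p = 0.2).

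Cdk1, the kinase of mitosis, had the same pattern, with 6.54, 6.81 and 6.95 in TFEB muscle and 5.37, 6.66 and 5.13 in GFP muscle. Its partner Ccnb2, for cyclin B2, measured 5.43, 5.62 and 5.73 in TFEB muscle and 4.09, 5.64 and 3.89 in GFP muscle. Ube2c, which supplies ubiquitin to the anaphase-promoting complex, measured 5.86, 6.25 and 6.25 in TFEB muscle and 4.71, 6.24 and 4.41 in GFP muscle. These 3 genes had log2 fold changes near 1 with all arrays (1.05, 1.05 and 1.00) and did not pass (adjusted p = 0.078, 0.11 and 0.13). Without GFP replicate 2 they were 2.87-, 3.04- and 2.94-fold higher (adjusted p = 0.00043, 0.00024 and 0.00051). Nusap1, a protein of the spindle and nucleolus, measured 4.81, 5.00 and 5.10 in TFEB muscle and 4.05, 5.81 and 4.15 in GFP muscle. There GFP replicate 2 was the highest array, and the log2 fold change was 0.30 ± 0.45 (SE, adjusted p = 0.64) with it and 0.87 ± 0.11 (SE, adjusted p = 0.0012) without it.

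A further 10 genes of mitosis did not pass with all arrays. Prc1, which bundles microtubules at the midzone, measured 6.06, 6.25 and 6.35 in TFEB muscle and 5.49, 6.00 and 5.59 in GFP muscle, a log2 fold change of 0.53 (adjusted p = 0.036) under the fold limit. Cenpe, a kinesin of the kinetochore, gave 0.47 (adjusted p = 0.05) and Kif11, the kinesin that parts the spindle poles, 0.40 (adjusted p = 0.19). Cdc20, which activates the anaphase-promoting complex, gave 0.36 (adjusted p = 0.094) at its brightest probe set and 1.47 at another, which passed. The genes of the spindle checkpoint gave 0.84 (Bub1), 0.31 (Mad2l1) and 0.20 (Bub1b), and the mitotic kinases Plk1 and Aurkb gave 0.31 each. Kif20a, a kinesin of cytokinesis, gave 0.14. Of these 10 genes Prc1, Cenpe, Kif11 and Bub1 passed without GFP replicate 2. The other controls were then at 2.70 and 2.81 for Cenpe and at 2.79 and 3.15 for Bub1, while the TrpnX control probe sets, which read a bacterial transcript, averaged 2.64 to 2.94. Both Cenpe values and the lower one of Bub1 are thus not above these controls, so the fold changes of both genes rest on a base near background. Bub1, Kif11, Kif20a, Cenpe and Aurkb were dim, with mean values under 4.68, where RMA compresses differences. Of the genes described above, GFP replicates 1 and 3 were also under 4.68 at Rrm2, Mcm5, Cdc6, Birc5, Ccnb2 and Nusap1. At Mki67, Top2a and Ube2c GFP replicate 3 alone was. The fold changes of these genes without GFP replicate 2 thus rest on dim controls too. The probe sets also disagreed without GFP replicate 2. Another Bub1 probe set did not pass (log2 fold change of 0.19, adjusted p = 0.12). Another Kif11 probe set passed (0.79, adjusted p = 0.01) and a further one did not (0.02, adjusted p = 0.89). For Prc1 another probe set passed as well (0.65, adjusted p = 0.005).

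Aurka, for Aurora A, the kinase of the spindle poles, was the mitotic gene that fell. It measured 6.84, 6.84 and 7.10 in TFEB muscle and 7.66, 7.50 and 7.52 in GFP muscle. Here GFP replicate 2 lay with its own group. Aurka fell 1.55-fold (log2 fold change of -0.63 ± 0.098 SE with adjusted p = 0.0047), near the fold limit, and was under it without GFP replicate 1 (-0.58) and with arrays shifted to the fast fibre contractile genes (-0.58).

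**Figure D3:**
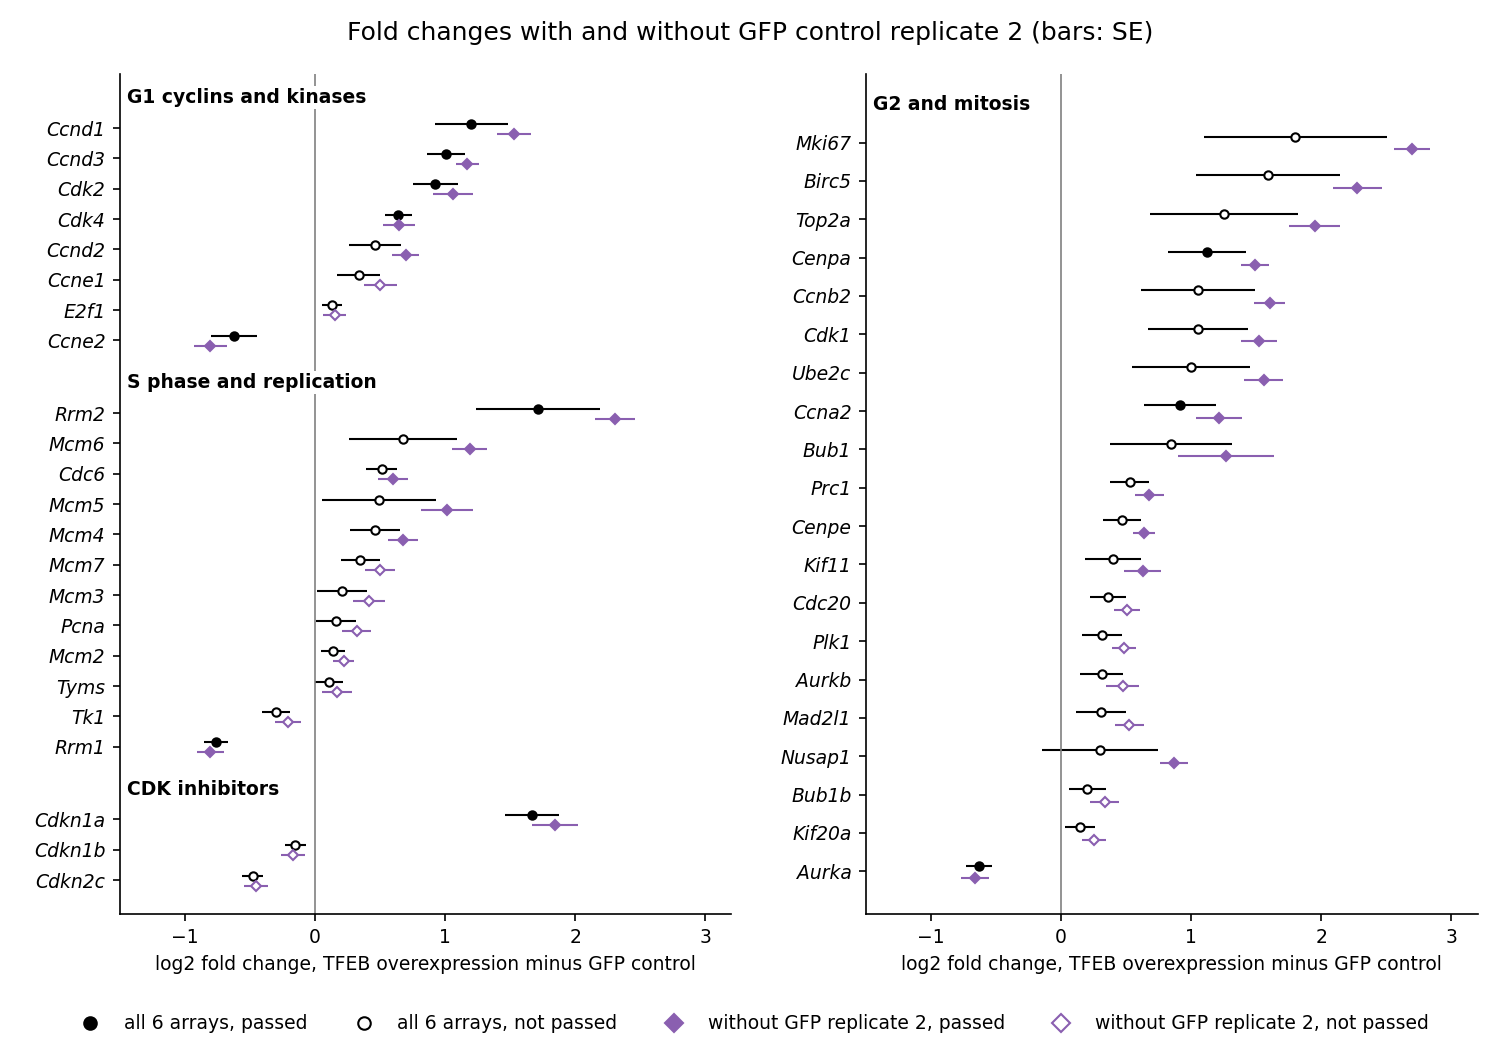
Log2 fold change (TFEB overexpression minus GFP control) of each measured gene with its standard error, from all 6 arrays (circles) and without GFP replicate 2 (diamonds), filled where the gene passed the adjusted p of 0.05 and the fold of 1.5. Most diamonds of S phase and mitosis lie to the right of their circles with shorter bars, so that 24 genes pass as higher in place of 8, while Cdk4, Rrm1, Aurka and the CDK inhibitors shift little. GFP replicate 2 was singled out for high values at such genes, so this shift follows in part from the choice.

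A list of 56 further mitotic genes, of which 50 were measured, had 9 higher and 2 lower and a median log2 fold change of 0.21. Of all genes 8.62% were higher and 4.9% lower. Kif22, a chromosome motor, rose 2.00-fold, Smc4 and Ncapd2, subunits of condensin, 1.95-fold and 1.59-fold, Ccnf, for cyclin F, 1.89-fold, Pbk, a mitotic kinase, 1.86-fold and Ect2, which sets up the cleavage furrow, 1.75-fold. The other 3 rose 1.96- to 2.26-fold. Cenpb, a centromere protein gene, fell 1.84-fold and Anapc5, a subunit of the anaphase-promoting complex, 1.55-fold. Without GFP replicate 2, 19 of the 50 were higher and 2 lower, against 12.3% and 6.36% of all genes.

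By class means, GFP replicate 2 stood further above the other controls at genes of S phase and mitosis than at those of G1. The mean log2 value of the G1 genes was 7.32 to 7.56 on TFEB arrays, against 6.76, 7.12 and 6.83 on GFP replicates 1, 2 and 3. That of the S phase genes was 6.68 to 6.91 on TFEB arrays, against 6.23, 6.92 and 6.29 on the GFP arrays. That of the G2 and mitosis genes was 5.53 to 5.85 on TFEB arrays, against 4.70, 5.72 and 4.65 on the GFP arrays. GFP replicate 2 thus lay between the groups for G1 and just above the TFEB range for S phase and inside it for mitosis. The count of genes over 2-fold above both other controls was 0 of 8 in G1, 3 of 12 in S phase, 8 of 20 in mitosis and 0 of 3 among the inhibitors.

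Markers of other cells moved with these genes, not in the same way on the TFEB arrays and on GFP replicate 2. The 14 macrophage markers averaged 8.43 to 9.17 on TFEB arrays, against 6.77, 9.16 and 6.89 on GFP replicates 1, 2 and 3. Of these 1 passed as higher with all arrays and 14 of 14 without GFP replicate 2, where 8.62% and 12.3% of all genes did. Cd68, the lysosomal glycoprotein of macrophages, rose 6.62-fold, with 9.63, 9.69 and 9.84 in TFEB muscle and 6.19, 8.35 and 6.46 in GFP muscle. Lyz2, Csf1r and C1qb, the macrophage markers of highest level, gave log2 fold changes of 0.89, 1.29 and 1.19, with adjusted p of 0.26, 0.052 and 0.26. The 10 measured markers of T and NK cells averaged 5.19 to 5.49 on TFEB arrays, against 4.67, 6.64 and 4.79 on the GFP arrays. GFP replicate 2 was over 2-fold above both other controls at 7 of the 10, against 3.43% of all genes. Nkg7, a gene of cytotoxic lymphocytes, measured 5.77, 5.92 and 6.29 in TFEB muscle and 5.04, 8.07 and 4.92 in GFP muscle. The 7 B cell markers averaged 5.08 to 5.68 on TFEB arrays and 5.09, 6.16 and 5.21 on the GFP arrays, and Ighm, the heavy chain of IgM, was at 7.60, 11.01 and 9.58 in TFEB muscle and 8.19, 11.78 and 8.66 in GFP muscle. With all arrays none of these T, NK and B cell markers passed by limma, 0 had an unadjusted p under 0.05, and 0 passed by the methods' two-tailed test. Without GFP replicate 2, 4 of the T and NK cell markers and 0 of the B cell markers were higher. GFP replicate 2 thus carried more of the markers of these 3 kinds of leukocyte than the other controls. It did not for neutrophils, whose 9 markers averaged 4.80, 4.82 and 4.87 on GFP replicates 1, 2 and 3. The part of leukocytes in the values of the cell cycle genes was not tested.

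By list means, markers of fibroblasts, endothelial cells and myoblasts were higher on TFEB arrays, while GFP replicate 2 lay near the other controls or below them. Beside the counts that follow, 8.62% of all genes rose with all arrays. Of 9 fibroblast markers 5 rose and their mean was 10.68 to 10.97 on TFEB arrays against 9.73 to 9.83 on GFP arrays, with Col1a1 4.81-fold, Pdgfrb 3.27-fold and Col3a1 3.11-fold higher. Of 10 endothelial markers 6 rose, with means of 8.20 to 8.38 on TFEB arrays and 7.30 to 7.58 on GFP arrays, and Tie1, Cdh5 and Cldn5 were 2.93-, 2.56- and 2.49-fold higher. Of 11 markers of satellite cells and myoblasts 6 rose, with means of 8.24 to 8.49 on TFEB arrays and 7.23 to 7.34 on GFP arrays. On GFP replicate 2, 1 of the 11 was over 2-fold above both other controls. Myog, the factor of myoblast differentiation, rose 11.1-fold and Chrna1, an acetylcholine receptor subunit that rises in denervated muscle, 5.36-fold. Pax7, a marker of satellite cells, measured 4.85, 4.47 and 4.92 in TFEB muscle and 4.43, 4.47 and 4.56 in GFP muscle (limma adjusted p = 0.16). Of 9 neutrophil markers 2 rose, S100a8 9.51-fold and S100a9 1.52-fold, and without GFP replicate 2 S100a8 alone did. The median log2 fold change of these 9 was -0.07 with all arrays and -0.14 without GFP replicate 2. No erythroid (4) or mature muscle (16) marker passed by limma, 1 and 4 of them had an unadjusted p under 0.05, 0 passed by the methods' two-tailed test, and Acta1, the skeletal actin, measured 14.34 to 14.37 on the 6 arrays. The part of these cells in the results was not tested either. Taking GFP replicates 1 and 3 alone as the base, the log2 fold changes of 4 of the 8 genes that rose were 1.17 for Ccnd3, 1.06 for Cdk2, 0.64 for Cdk4 and 1.84 for Cdkn1a, against 1.00, 0.92, 0.64 and 1.67 with all 3 controls. Those of the other 4 moved more, to 1.53 for Ccnd1, 2.31 for Rrm2, 1.21 for Ccna2 and 1.49 for Cenpa, against 1.20, 1.71, 0.91 and 1.12 with all 3 controls.

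**Figure D4:**
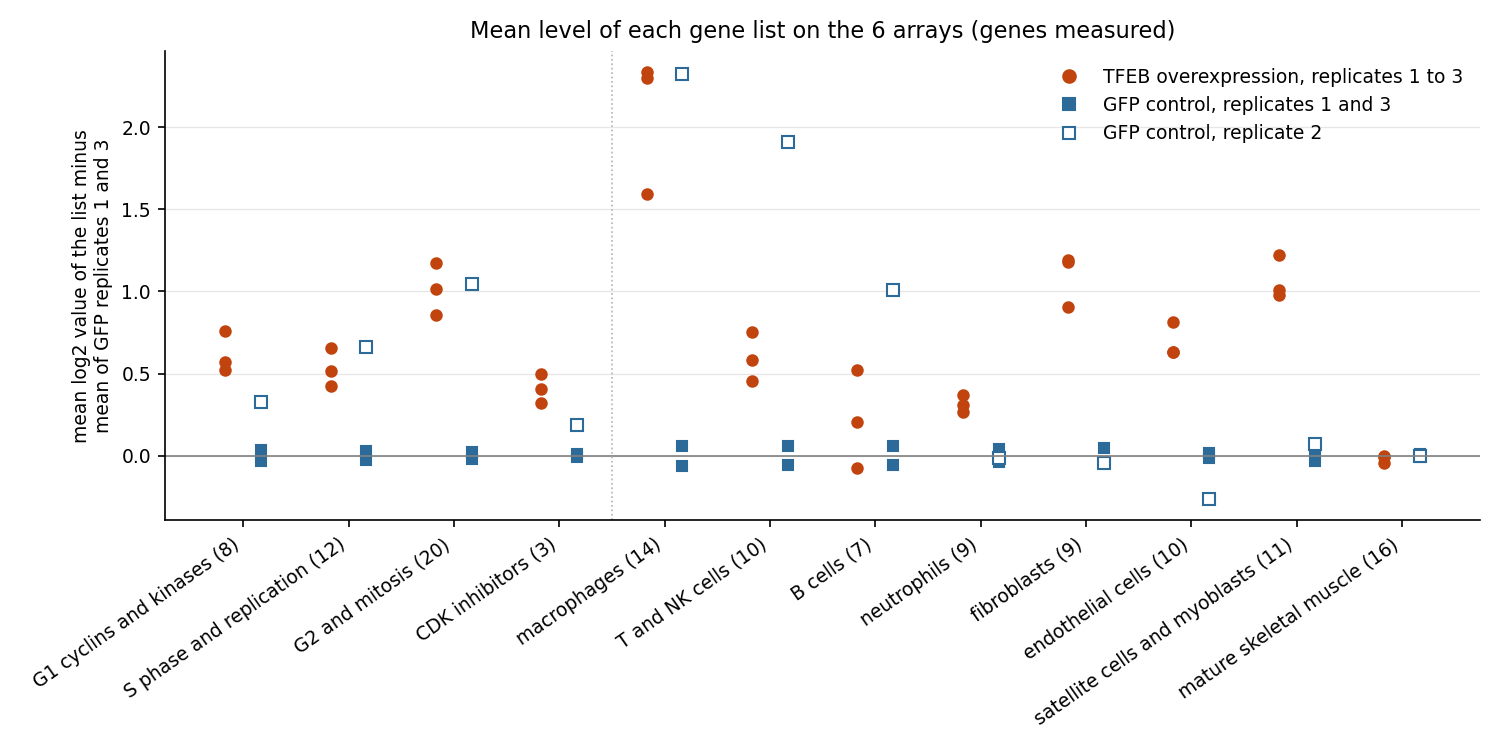
Mean log2 value of each gene list on each array minus the mean of GFP replicates 1 and 3, with TFEB arrays as circles left of GFP arrays as squares, GFP replicate 2 open, and the number of genes measured in brackets. GFP replicate 2 is raised for S phase, mitosis, macrophages, T and NK cells and B cells. It is near the other controls for neutrophils, fibroblasts, satellite cells and myoblasts, and mature muscle, where mature muscle is level on the 6 arrays.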

How the data were processed

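Total RNA of 6 muscle samples was read on Affymetrix arrays, 1 array per biological replicate. The authors deposited log2 values per probe set, made with affy and RMA (versions not stated) as named in the processing notes. RMA subtracts background, quantile-normalizes the arrays and sums up the probes of a set, which compresses differences of very dim and very bright sets. Signal over background was not used here, and the number of arrays limits the precision.

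After removal of 64 controls, 22626 probe sets were fitted in limma 3.58.1 under R 4.3.3 (2-group lmFit, eBayes, two-sided), with Benjamini-Hochberg adjustment over all of them. For each gene the brightest probe set was taken from the 20380 with 1 symbol in the platform annotation (691 had several and 1555 none).

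The members, lists and alternatives were chosen with earlier results of these data known. Every measured member is named, from further lists up to 6 genes of smallest p that passed in each direction, and from cell type lists genes of highest level and those that passed among the 3 of smallest p. Pax7 is named outside this rule. RefSeq promoter windows were searched by exact letters, and the results were recomputed under 16 alternatives.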

Additional observations from a re-analysis of the deposited data

How the results depend on the processing

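The count of 8 genes higher and 3 lower depended on single arrays. Leaving out 1 array at a time gave 3 to 24 higher, with 24 without GFP replicate 2, and 1 to 3 lower. Weighting the arrays gave 18 higher, and the Student test that the study names for its other data (the methods' two-tailed test) gave 3 higher. Shifting the arrays to the fast fibre contractile genes left 1 lower. The median of the CDK inhibitors was -0.22 with arrays set to equal medians and -0.48 with the mean of the probe sets of a gene, and that of G2 and mitosis was 0.91 with dim probe sets left out, which removes 7 of the 43 genes. The sign turned for Nusap1 without GFP replicate 1 (log2 fold changes of -0.0095 to 0.87 over the arrays left out) and for Tyms with the mean of its probe sets (-0.15), and neither passed in the setting that turned it. Ccnd3 and Cdkn1a kept their calls under each of the 16 alternatives, Cdk2 and Rrm1 under 15, Cdk4 and Aurka under 14, Ccnd1 under 12, Cenpa under 10, Rrm2 and Ccne2 under 9 and Ccna2 under 7. These counts include the alternative with no fold limit, which used the same fit and could not take away a call. The causes were not tested.

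Replicate numbers gave no clear pairing of the arrays. Deviations from the group means of same-numbered arrays correlated at 0.42, 0.17 and -0.23, and 3 of 6 arrays correlated best with their own number. With 3 arrays per group these values cannot settle whether the arrays were paired. With the number as a replicate block, 7 genes were higher and 3 lower, Ccna2 being lost (adjusted p = 0.058), and over all genes 1065 were higher and 606 lower in place of 1068 and 607.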
